A study of Mus minutoides with 4 samples.

Results

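The histone genes described here are the 101 rows that are annotated as protein coding and carry a histone gene symbol of the families *Hist1h* to *Hist4h*, *H1f*, *H2a* and *H2af*, *H2b*, *H3f* and *H4*, out of 41325 rows in each gene table. The symbols matched 102 rows, and the one left out was *H3f3aos*, an antisense transcript of *H3f3a* with 1 to 6 reads per library. By their gene symbols alone, the members were split into 64 replication-dependent genes (59 of core histones and 5 of linker histones), 11 replacement genes (9 core and 2 linker) and 26 germline genes. The tables come from bulk RNA-seq of the African pygmy mouse *M. minutoides*, with 1 library for each of 4 cell lines. The comparison asked how the transcriptome of induced pluripotent stem cells (iPSCs) differed from that of fibroblasts.

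Fibroblast lines 1 and 2 were cultured from tail tips in DMEM with fetal bovine serum and were not reprogrammed. iPSC lines 6 and 10 were made from such fibroblasts by electroporation of piggyBac plasmids for doxycycline-inducible *Oct3/4*, *Klf4*, *Sox2* and *cMyc* and for *Glis1*, *Nanog* and *Lin28a*, together with a plasmid for rtTA and eGFP. They were grown in 2i medium with KSR on mouse embryonic fibroblast feeder cells treated with mitomycin C, and doxycycline had been withdrawn. Each iPSC line was started from single cells of a picked colony. Cell type, medium and feeder cells differ together between the groups and cannot be told apart. It is not stated in the sources used here whether separate animals gave the lines of a group. The p-values therefore measure no more than the spread between these samples (n = 2 per group). Fewer cells of a type and less RNA per cell cannot be told apart in bulk RNA.

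Core histones H2A, H2B, H3 and H4 form the nucleosome, and linker histones of the H1 family bind the DNA between nucleosomes. Replication-dependent genes lie in clusters and mostly have no intron. They are transcribed in S phase into mRNAs that typically end in a stem-loop instead of a poly(A) tail. Replacement histones are mostly made through the cell cycle from single genes with polyadenylated mRNAs, though not every gene follows this. They are put into chromatin outside replication, at promoters, at damaged DNA or in cells that have stopped dividing. Embryonic stem cells are known for a short G1 phase and for open, dynamic chromatin, while *H1f0* is known to accumulate in differentiated and resting cells.

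The libraries held 33084850 to 36694828 exon reads, of which 94.4% to 96.4% were placed uniquely on the *M. musculus* build GRCm38. Levels between genes are given as TPM, the authors' exon reads per exon length scaled to a total shared by the libraries, and groups were compared by edgeR's quasi-likelihood test on exon reads. A gene counted as called when its fold passed 2 and its p, adjusted by Benjamini-Hochberg, was below 0.05. Pairs of values give the libraries in the order of lines 1 and 2 for fibroblasts and lines 6 and 10 for iPSCs, and SE is the standard error of a log2 fold change. Of 17777 genes tested, 27.1% were called higher and 22.3% lower in iPSCs, with a median log2 fold change of 0.08. Scaling by total counts instead of TMM moved the split from 4818 higher and 3962 lower to 5768 and 3028, and the median to 0.36. Pluripotent cell markers were called higher for 12 of 12 genes. Fibroblast markers were called lower for 11 of 15 and higher for 1, and their summed TPM in iPSC lines 6 and 10 was 25.7% and 13.2% of the fibroblast mean. The one called higher was *Fbln1*, a gene of the extracellular matrix, with a TPM of 0.664 and 0.747 in fibroblasts against 177 and 69.2 in iPSCs (log2 fold change 7.24). Macrophage markers were called higher for 4 of 6, with summed TPM of 7.71 and 7.04 in fibroblasts against 239.6 and 571 in iPSCs. *Lyz2* and *Adgre1* among them were at 0 in both fibroblast libraries and at 203 to 463 and 10.6 to 43.9 TPM in iPSCs. Genomic PCR of the iPSCs also gave some *M. musculus* product, which the study speculates came from the feeder cells. The part of macrophages and of feeder cells in the histone values was not tested.

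Fibroblast lines 1 and 2 had 55177 and 57418 histone gene reads, and iPSC lines 6 and 10 had 87554 and 86052, which was 0.164% to 0.254% of each library. Replacement genes held most of them, with 48118 and 49951 reads in fibroblasts against 80146 and 79652 in iPSCs. The 64 replication-dependent genes together held only 7039 and 7449 reads in fibroblasts against 7370 and 6354 in iPSCs. Germline genes held 18 to 46 reads per library. In summed TPM, replacement genes made up 74.5% of the histone total in both fibroblast libraries and 82.7% and 83.5% in iPSC lines 6 and 10. On unique reads alone, which leave out most reads of core replication-dependent genes, these shares were 84.3% and 84.6% against 86.8% and 88.7%. Replication-dependent mRNAs typically have no poly(A) tail, and it is unknown whether RNA with such tails was selected. All these shares therefore describe the RNA captured in the libraries, and the balance of histone mRNA in the cells was not tested.

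The edgeR test covered 66 of the 101 members. It called 11 higher and 17 lower in iPSCs, which is 16.7% and 25.8% of those tested, beside the 27.1% and 22.3% over all genes tested. Replacement genes split into 3 higher, 2 lower and 5 not called. Replication-dependent genes split into 7 higher, 14 lower and 33 not called of 54 tested. Of the 35 members not tested, 16 had no read in any library and the others had too few reads.

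The largest increase of any histone family was in replacement H2A. Summed TPM of its 6 genes was 930.0 and 1018 in fibroblasts against 2256 and 2533 in iPSCs, a ratio of 2.46. In CPM (exon reads over the TMM-scaled library size) the ratio was 2.00. *H2afz*, *H2afx* and *H2afj* rose, *H2afy* fell, and *H2afv* and *H2afy2* were not called.

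*H2afz* (ENSMUSG00000037894, chromosome 3, 137864487 to 137866922 of GRCm38) encodes the main form of the replacement H2A of promoters and regulatory regions. Its TPM was 468 and 504 in fibroblasts against 1278 and 1414 in iPSCs, the highest deposited TPM of all members in both iPSC libraries. The groups did not overlap, and edgeR gave a log2 fold change of 1.34 (SE 0.076, adjusted p = 0.00036). Only 28.1% to 30.5% of its reads were placed uniquely, and on unique reads alone the log2 fold change was 1.25. *H2afv* (chromosome 11, 6427229 to 6444443) encodes the second form of the same replacement histone, and all of its reads were unique. Its TPM was 94.1 and 110.8 in fibroblasts against 103 and 120.0 in iPSCs, so the groups overlapped. The test on *H2afv* gave a log2 fold change of -0.00 (SE 0.10, edgeR adjusted p = 0.98), and its sign was positive with upper-quartile or total-count scaling, at 0.18 and 0.28. *H2afz* thus took 83.3% and 82.0% of the summed TPM of both forms in fibroblasts against 92.5% and 92.2% in iPSCs. On unique reads alone, which are all reads of *H2afv* but a minority of those of *H2afz*, the share was 60.3% and 57.3% against 77.6% and 76.8%.

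*H2afx* (ENSMUSG00000049932, chromosome 9, 44334694 to 44336077, 1 exon) encodes the H2A variant that is phosphorylated at DNA breaks. Its TPM was 242 and 269 in fibroblasts against 619 and 804 in iPSCs, and at least 98.9% of its reads in each library were unique. iPSC line 10 was the highest, both iPSC libraries lay far above both fibroblast libraries, and the log2 fold change was 1.35 (SE 0.14, edgeR adjusted p = 0.0013). On unique reads alone *H2afx* lay above *H2afz*, with 46.2% and 52.9% of the replacement H2A TPM in iPSCs beside 26.9% and 26.3% for *H2afz*. *H2afj* (chromosome 6, 136808244 to 136810074) encodes a variant close in sequence to replication-dependent H2A. Its TPM was 71.0 and 70.5 in fibroblasts against 215.7 and 162 in iPSCs. The log2 fold change of *H2afj* was 1.29 (SE 0.17, edgeR adjusted p = 0.0032), and here iPSC line 6 was the higher. *H2afj* lies close to *Hist4h4* on chromosome 6, an H4 gene that fell (-1.48).

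The macroH2A genes encode large H2A variants with an additional macro domain, known for silent chromatin. *H2afy* (chromosome 13, 56073619 to 56136361) had a TPM of 47.8 and 54.3 in fibroblasts against 27.8 and 25.9 in iPSCs, with no overlap. It fell with a log2 fold change of -1.05 (SE 0.083, edgeR adjusted p = 0.00072). This value is close to the fold threshold, and *H2afy* was not called with upper-quartile scaling (-0.87), total counts (-0.77), a filter of 50 reads (-0.96) or limma on log2(TPM + 1) (-0.90), nor without iPSC line 10 (-0.998). *H2afy2* (chromosome 10, 61738665 to 61784147) had a TPM of 6.82 and 7.93 in fibroblasts against 12.2 and 7.66 in iPSCs. iPSC line 10 lay between the fibroblast libraries, and *H2afy2* was not called (log2 fold change 0.31, SE 0.30, edgeR adjusted p = 0.41). The share of *H2afy* in the summed TPM of both macroH2A genes was 87.5% and 87.3% in fibroblasts against 69.4% and 77.2% in iPSCs.

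**Figure D1:**
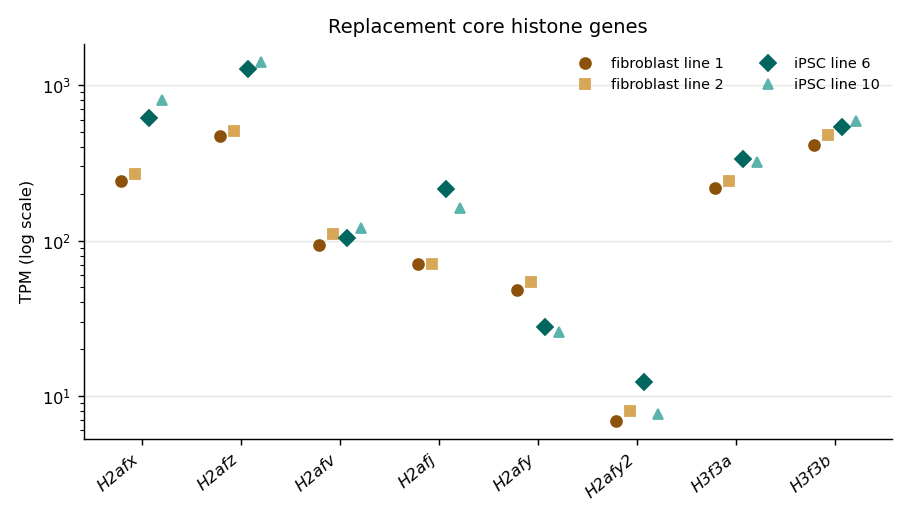
TPM (log scale) of the 8 replacement core histone genes that were tested, with 1 point per library. *H2afx*, *H2afz* and *H2afj* lie higher in both iPSC lines than in both fibroblast lines, *H2afy* lies lower, and the points of *H2afv* overlap.

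The H3 replacement histone is encoded by *H3f3a* and *H3f3b*, which give the same protein and mark transcribed genes. *H3f3b* (chromosome 11, 116021912 to 116027962) had a TPM of 415 and 478 in fibroblasts against 536 and 585 in iPSCs. *H3f3a* (chromosome 1, 180800832 to 180813943) had a TPM of 217 and 242 in fibroblasts against 337 and 318 in iPSCs. Both genes were higher in each iPSC library than in each fibroblast library, but by less than the fold threshold. For *H3f3a*, edgeR gave a log2 fold change of 0.39 (SE 0.075, adjusted p = 0.0097), and for *H3f3b* 0.20 (SE 0.073, adjusted p = 0.063). *H3f3a* made up 33.6% to 38.6% of the TPM of the pair in the 4 libraries, and 49.0% to 52.1% of its reads were unique, against 99.9% for *H3f3b*. On unique reads alone *H3f3a* made up 21.1% and 19.9% of the pair in fibroblasts against 24.0% and 22.1% in iPSCs.

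*H2bfm*, counted with the replacement genes by its symbol alone, had 2 reads in iPSC line 10 and none elsewhere, and was not tested.

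Among linker histone genes, the most abundant one fell. *H1f0* (ENSMUSG00000096210, chromosome 15, 79028450 to 79030504, 1 exon) encodes the replacement H1 of differentiated cells and was the most abundant member in both fibroblast libraries. Its TPM was 611 and 705 in fibroblasts against 248 and 239.8 in iPSCs. The groups did not overlap, 98.6% to 99.3% of the reads were unique, and *H1f0* fell with a log2 fold change of -1.56 (SE 0.075, edgeR adjusted p = 0.00028). It was called lower under each alternative tried, between -1.68 and -1.27. *H1f0* made up 68.0% and 68.1% of all H1 TPM in fibroblasts against 48.2% and 46.5% in iPSCs. Of the fibroblast markers, 11 of 15 were called lower as well and 1 higher, and their part in this change was not tested.

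*H1fx* (chromosome 6, 87980421 to 87981637) encodes the other replacement H1. Its TPM was 106 and 114 in fibroblasts against 117 and 161 in iPSCs, with a log2 fold change of 0.20 (SE 0.16, edgeR adjusted p = 0.32). Without iPSC line 10 the value was -0.04, so the direction of *H1fx* changed with this library.

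The 5 replication-dependent H1 genes lie in the *Hist1* cluster on chromosome 13 and encode the somatic H1 subtypes. *Hist1h1c* (23738808 to 23740367) was the most abundant of them, with a TPM of 150.6 and 180.1 in fibroblasts against 139 and 93.1 in iPSCs. It alone held 23.2% to 32.4% of all replication-dependent histone reads in each library. *Hist1h1c* was not called (log2 fold change -0.63, SE 0.22, edgeR adjusted p = 0.054), and iPSC line 6 was well above line 10.

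*Hist1h1e* (23620629 to 23622558) and *Hist1h1d* (23553262 to 23560686) fell. *Hist1h1e* had 361 and 372 reads in fibroblasts against 75 and 63 in iPSCs, which in TPM is 20.1 and 22.5 against 3.56 and 3.22. Its log2 fold change was -2.74 (SE 0.19, edgeR adjusted p = 0.00052). *Hist1h1d* had 441 and 528 reads in fibroblasts against 162 and 98 in iPSCs, a log2 fold change of -2.25 (SE 0.27, edgeR adjusted p = 0.0023). Neither gene had overlapping groups, and 61.9% to 70.7% of the *Hist1h1e* reads and at least 87.8% of the *Hist1h1d* reads were unique. The annotated *Hist1h1d* model is 7425 bases long, the longest of the replication-dependent genes, and this length lowers its TPM.

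*Hist1h1a* (23763666 to 23764406) and *Hist1h1b* (21779883 to 21780625) had few reads, all of them unique. *Hist1h1a* had 6 and 4 reads in fibroblasts against 24 and 82 in iPSCs, a log2 fold change of 2.68 (SE 0.75, edgeR adjusted p = 0.029). The call of *Hist1h1a* was lost without fibroblast line 1 (2.92), without fibroblast line 2 (2.46) and without iPSC line 10 (1.54). *Hist1h1b* had 8 and 10 reads in fibroblasts against 18 and 42 in iPSCs and was not called (log2 fold change 1.23, SE 0.54, edgeR adjusted p = 0.10). Without iPSC line 6 it was called, at 1.69. For both genes iPSC line 10 was the highest.

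**Figure D2:**
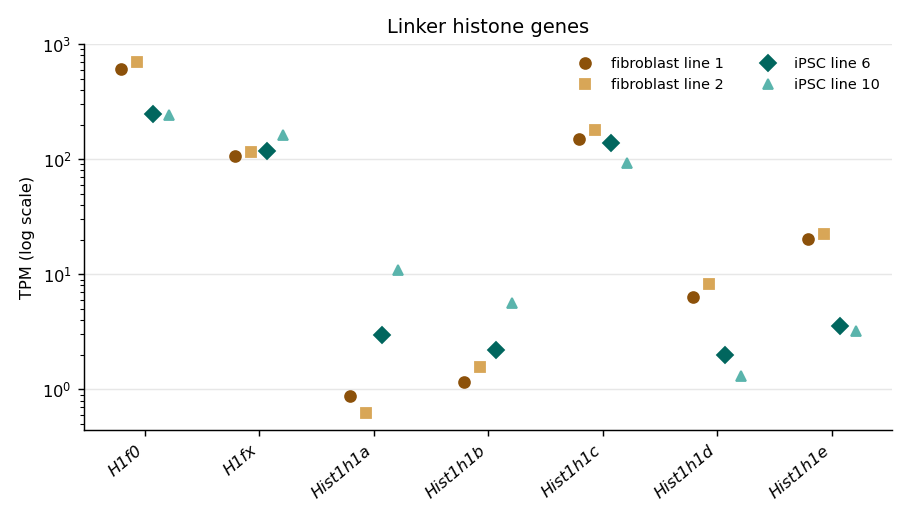
TPM (log scale) of the 7 linker histone genes, with 1 point per library. *H1f0*, *Hist1h1d* and *Hist1h1e* lie lower in both iPSC lines than in both fibroblast lines, while *Hist1h1a* lies higher and the 2 groups of *Hist1h1c* are close.

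The summed level of replication-dependent genes was close between the groups in TPM. Summed TPM of the 64 genes was 778 and 875 in fibroblasts against 730.1 and 759.5 in iPSCs. The ratio of iPSCs to fibroblasts was 0.90 in TPM, 0.73 in TMM-scaled CPM and 0.98 in TPM computed from unique reads alone, so its size depended on the scale. Of the 54 tested genes, 13.0% were called higher and 25.9% lower, beside 27.1% and 22.3% over all genes, with a median log2 fold change of -0.35. Without fibroblast line 1 the count called lower was 8 in place of 14, and without fibroblast line 2 it was 9.

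The core families are given one by one. The shares called higher and lower were 21.4% and 7.14% in H2A, 6.67% and 26.7% in H2B, 0% and 37.5% in H3, and 16.7% and 33.3% in H4. Over all genes tested they were 27.1% and 22.3%. In replication-dependent H2A, summed TPM was 157 and 168 in fibroblasts against 249 and 300.0 in iPSCs, with 3 genes called higher and 1 lower of 14 tested. In TMM-scaled CPM its ratio was only 1.05. In H2B, summed TPM was 222 and 269 in fibroblasts against 158 and 163 in iPSCs, with 1 gene called higher and 4 lower of 15 tested. On unique reads the H2B ratio was 1.04. In H3, summed TPM was 132 and 142 in fibroblasts against 68.9 and 81.2 in iPSCs, with 3 genes called lower and the other 5 of 8 tested not called. On unique reads the H3 ratio was 1.10 in place of 0.55, and 17.6 to 24.5 TPM per library were then left. In H4, summed TPM was 88.4 and 83.3 in fibroblasts against 105 and 102 in iPSCs, with 2 higher and 4 lower of 12 tested. On unique reads the H4 ratio was 1.81 in place of 1.20, from 43.8 and 30.5 TPM in fibroblasts to 67.4 and 67.0 in iPSCs.

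**Figure D3:**
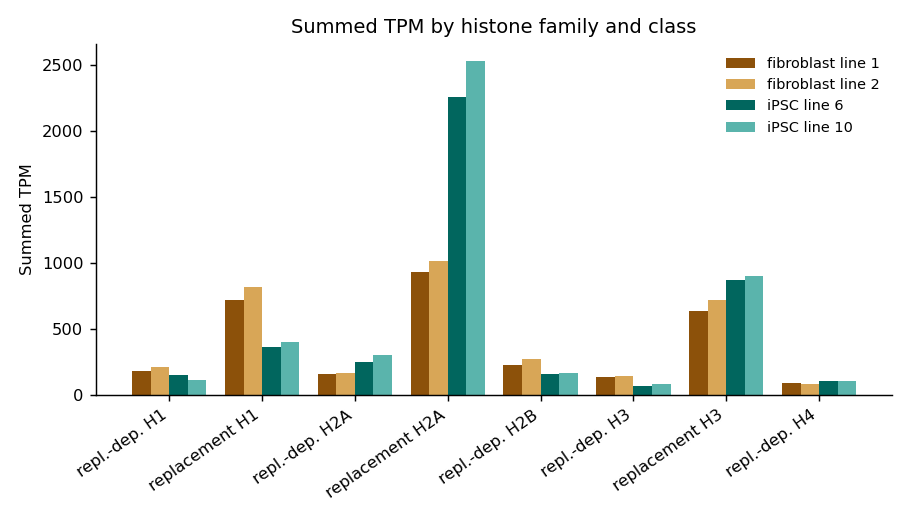
Summed TPM (linear axis from 0) of each histone family, with replication-dependent (repl.-dep.) and replacement genes apart and 1 bar per library. Replacement H2A reaches 2256 and 2533 in iPSC lines 6 and 10, above 930.0 and 1018 in fibroblasts, while replacement H1 is lower in both iPSC lines.

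Reads of core replication-dependent genes were often shared between copies, which are nearly identical in their coding sequence. The unique share of their reads was 35.9% to 45.2% per library, against 91.9% to 98.6% for replication-dependent H1. Of the 64 replication-dependent genes, 31 had under 50% unique reads, and 6 of those had reads but no unique one. For such genes the split of reads between copies depends on how multiply placed reads were assigned, which is not given in the sources used here. Of the 28 tested genes with at least 50% unique reads, 2 were called higher and 6 lower. Of the 26 under 50%, 5 were called higher and 8 lower. Over all genes tested, 27.1% were called higher and 22.3% lower. With unique reads only, 31 replication-dependent genes were tested, and 5 were called higher and 8 lower, beside 4740 and 3882 of 17366 genes. All 8 called lower, and 4 of the 5 called higher, were the same genes as with all reads, and the fifth was *Hist2h3c2*.

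**Figure D4:**
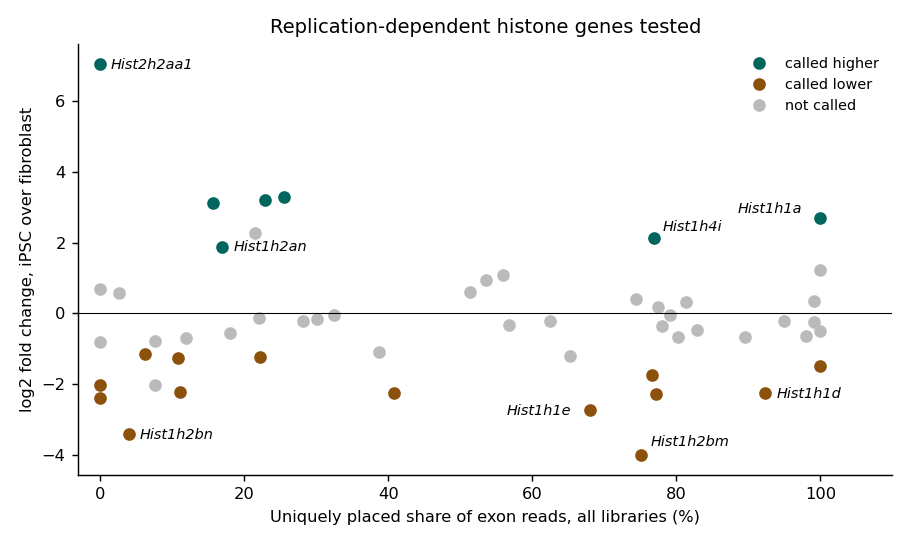
Log2 fold change (iPSC over fibroblast, fitted by edgeR) against the share of uniquely placed exon reads (%) for the 54 tested replication-dependent genes, with 1 point per gene. *Hist2h2aa1*, at 0% unique, had no fibroblast read, so its fitted value depends on the prior count, whereas *Hist1h2bm*, *Hist1h1e* and *Hist1h1d* are called lower at a high unique share.

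The *Hist2h2aa1* and *Hist2h2aa2* genes on chromosome 3 (96245497 to 96246082 and 96239749 to 96240276) are neighbouring copies that are described together, since none of their reads was unique in any library. *Hist2h2aa1* had 0 reads in both fibroblast libraries against 256 and 341 in iPSCs (edgeR adjusted p = 0.0011). With the fibroblast group set to a floor of 3 counts, its assigned reads were at least 154-fold higher. This bound covers counting error only, and not how shared reads were assigned between the copies. *Hist2h2aa2*, its neighbour, had 193 and 259 reads in fibroblasts against 189 and 143 in iPSCs (log2 fold change -0.81, SE 0.25, not called for its fold). Added together, the pair had 193 and 259 reads in fibroblasts against 445 and 484 in iPSCs, a ratio of 1.60 in TMM-scaled CPM. The H4 genes *Hist1h4n* (chromosome 13, 21831767 to 21832196) and *Hist1h4m* (21811746 to 21812147) also moved in opposite directions. *Hist1h4n* had 0 and 13 reads in fibroblasts against 137 and 69 in iPSCs (log2 fold change 3.30, SE 1.07, edgeR adjusted p = 0.045), a call lost without fibroblast line 1 (2.45) or iPSC line 6 (2.77). *Hist1h4m*, named after its values were seen, had 110 and 95 reads in fibroblasts against 44 and 71 in iPSCs (log2 fold change -1.16). Their sum was 110 and 108 reads in fibroblasts against 181 and 140 in iPSCs, a ratio of 1.14.

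Among H2A genes, *Hist1h2an* (chromosome 13, 21786826 to 21787218) had the highest iPSC level of the replication-dependent core genes. Its TPM was 30.6 and 30.5 in fibroblasts against 109 and 138 in iPSCs, and the groups did not overlap. *Hist1h2an* rose with a log2 fold change of 1.87 (SE 0.20, edgeR adjusted p = 0.0016), and with unique reads, 15.4% to 23.2% of its total, the value was 1.45. *Hist3h2a* (chromosome 11, 58954685 to 58956830) had 663 and 705 reads in fibroblasts against 423 and 330 in iPSCs. It fell with a log2 fold change of -1.23 (SE 0.15, edgeR adjusted p = 0.0023), but with total counts the value was -0.94 and *Hist3h2a* was not called. The other H2A gene called was *Hist2h2ac*, at 3.13, which had too few unique reads to be tested on them.

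Among H2B genes, *Hist1h2bm* and *Hist1h2bn* had the largest decreases of any member with a mean of at least 50 reads. *Hist1h2bm* (chromosome 13, 21722044 to 21722567) had 101 and 115 reads in fibroblasts against 8 and 5 in iPSCs. Of these, 79 and 85 in fibroblasts against 5 and 3 in iPSCs were unique, and the log2 fold change was -4.02 (SE 0.36, edgeR adjusted p = 0.00099). *Hist1h2bn* (21754123 to 21754503) had 183 and 287 reads in fibroblasts against 36 and 17 in iPSCs, a log2 fold change of -3.41 (SE 0.45, edgeR adjusted p = 0.0030). Of the *Hist1h2bn* reads only 2 and 6 in fibroblasts against 5 and 8 in iPSCs were unique, so the decrease was seen in reads shared with other copies alone. *Hist1h2be* and *Hist2h2bb* also fell (-1.76 and -2.38), and *Hist1h2br* rose (3.22).

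*Hist1h2bc* (chromosome 13, 23684199 to 23692908) was the most abundant core replication-dependent gene in reads, with 724 and 832 in fibroblasts against 1322 and 1167 in iPSCs. It was not called (log2 fold change 0.31, SE 0.11, edgeR adjusted p = 0.057). Unlike most of its class it has an annotated intron, and 175 and 248 reads in fibroblasts against 295 and 224 in iPSCs crossed an exon junction. Reads within the intron went the other way, with 541 and 509 in fibroblasts against 107 and 67 in iPSCs. Counted over the whole gene, the log2 fold change of *Hist1h2bc* was -0.46.

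Among H3 genes, *Hist1h3h* (chromosome 13, 21717659 to 21718069) had 155 and 190 reads in fibroblasts against 64 and 117 in iPSCs, a log2 fold change of -1.27 (SE 0.39, edgeR adjusted p = 0.039). On unique reads, 11 to 20 per library, the value was -0.09, and the call was also lost when fibroblast line 1 (-1.42), fibroblast line 2 (-1.15) or iPSC line 6 (-0.89) was left out. *Hist1h3b* (23752267 to 23752886) had 179 and 154 reads in fibroblasts against 148 and 114 in iPSCs and was not called (log2 fold change -0.71, edgeR adjusted p = 0.054). Its sign was positive on unique reads (0.31). *Hist1h3g* and *Hist2h3b* were called lower as well, at -2.27 and -2.02, and none of the *Hist2h3b* reads was unique. Among H4 genes, *Hist1h4i* (22040636 to 22041362), chosen after its values were seen, had 31 and 48 reads in fibroblasts against 249 and 208 in iPSCs. *Hist1h4i* rose with a log2 fold change of 2.12 (SE 0.31, edgeR adjusted p = 0.0042), and 52.1% to 81.2% of its reads were unique. *Hist1h4b*, *Hist1h4f* and *Hist4h4* fell, at -2.23, -2.24 and -1.48. *Hist1h4b* had 20 and 11 reads in fibroblasts, 0 of them unique, against 3 and 2 in iPSCs, of which 2 and 2 were unique. Its decrease was thus seen in shared reads alone.

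By position, the *Hist1* cluster on chromosome 13 falls into a proximal and a distal part. In the proximal part, from 21715763 to 22043676, 20 of 23 genes were tested and 4 were called higher and 4 lower, 20.0% each beside 27.1% and 22.3% over all genes. In the distal part, from 23531050 to 23764406, 23 of 28 genes were tested and 1 was called higher and 6 lower, or 4.35% and 26.1%. The *Hist2* cluster on chromosome 3 (96219865 to 96270132) had 2 higher and 2 lower of 8 tested, or 25.0% each. *Hist3* genes on chromosome 11 and *Hist4h4* on chromosome 6 had 1 gene called lower each, of 2 and 1 tested. A difference between the parts of *Hist1* was not tested.

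Replication-dependent mRNAs typically carry no poly(A) tail, and whether the libraries were made from poly(A) RNA is not given in the sources used here. Fibroblast line 1 stood apart for other RNAs without a tail. An rRNA row (CT010467.1) took 3.53% of its exon reads, against 0.134% in fibroblast line 2 and 0.142% and 0.219% in iPSC lines 6 and 10. In TPM the same row took 6.88% of fibroblast line 1, against 0.280% of line 2 and 0.257% and 0.395% of iPSC lines 6 and 10. As TPM has a fixed total, this lowers the other TPM values of fibroblast line 1. 7SL RNA (*Rn7s1*) was at 695 CPM (of total exon reads, not TMM-scaled) in fibroblast line 1 and at 2.75 to 11.2 in the other libraries, and *Rmrp* at 10.5 against 0.109 to 0.325. 7SK RNA (*Rn7sk*) was at 70.6 CPM in fibroblast line 1 and at 1.84 to 3.96 in the other libraries. The summed reads of the replication-dependent histone genes did not follow this, with 7039 in fibroblast line 1 and 7449 in line 2. The 46 genes with models of 1000 bases or less held 2000 and 1979 of them. Single genes went either way, with *Hist1h2bf* at 47 and 0 reads and *Hist1h2bn* at 183 and 287. Of the replication-dependent genes, the 18 whose models are over 1000 bases long held 71.6% and 73.4% of the reads of the class in fibroblasts. In iPSCs these 18 genes held 69.2% and 60.0%. The median model of the class is 555.5 bases. How much of the replication-dependent mRNA of the cells was captured was not tested. Sums, calls and median fold changes of this class therefore describe captured RNA only.

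**Figure D5:**
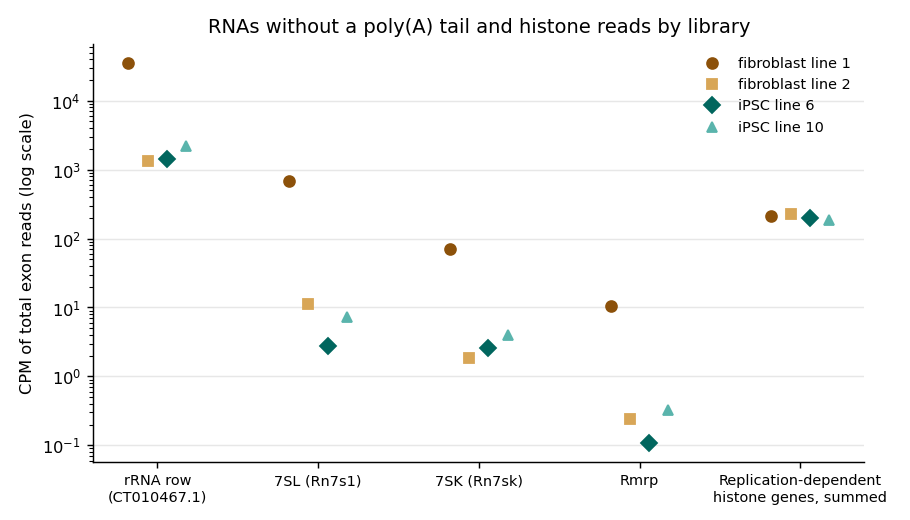
CPM of total exon reads (log scale) of an rRNA row, 7SL, 7SK and *Rmrp* RNA and of the 64 replication-dependent histone genes summed, with 1 point per library. Fibroblast line 1 lies far above the other libraries for the first 4 items, at 695 for 7SL against 2.75 to 11.2, and among them for the histone genes.

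Germline histone genes were nearly silent in both cell types. Of the 26, among them the *H2al* and *H2afb* genes of spermatids, 15 had no read in any library and 3 reached 10 reads in a library. *Hist1h2ba*, the testis H2B gene (chromosome 13, 23933773 to 23934156), had 1 and 0 reads in fibroblasts against 18 and 31 in iPSCs. It was called higher (edgeR adjusted p = 0.0086), with a ratio of 38.0 and an exact 95% interval of 6.51 to 1531 for counting error only. Without fibroblast line 2 the call of *Hist1h2ba* was lost (log2 fold change 2.94). *Hist1h2aa*, its H2A neighbour, had 2 and 1 reads in fibroblasts against 10 and 6 in iPSCs and was not tested (ratio 4.14, interval 1.18 to 22.1). *Hist1h1t*, the testis H1 gene, had 16 and 13 reads in fibroblasts against 1 and 6 in iPSCs, a log2 fold change of -1.86 (SE 0.60, edgeR adjusted p = 0.045). Its call was lost when either fibroblast line 1 (-1.75), fibroblast line 2 (-2.03) or iPSC line 6 (-1.31) was left out, and with total counts (-1.64). Germ cell markers were called higher for 5 of 6 tested, with summed TPM of 3.71 and 4.04 in fibroblasts against 33.9 and 33.1 in iPSCs, and their part in the *Hist1h2ba* values was not tested.

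Genes that act in the expression and transport of histones were counted as well. Of 19 tested genes for the synthesis and processing of histone mRNA, 5 were called higher and 1 lower, with a median log2 fold change of 0.41 beside 0.08 over all genes. The share called higher, 26.3%, was close to the 27.1% over all genes, and the share called lower was 5.26% beside 22.3%. *Zfp473*, a zinc finger protein of the processing machinery, rose most (3.69, SE 0.40, edgeR adjusted p = 0.0017), from 0.246 and 0.604 TPM to 5.50 and 6.78. *Coil*, the coilin of Cajal bodies, rose by 2.23 on the log2 scale, and *Cpsf3*, the nuclease that cuts histone pre-mRNA, by 1.19. *Cstf2* (1.19) and *Eri1* (1.17), an exonuclease of the histone stem-loop, rose as well. *Tut7*, a uridylyltransferase, was the one gene called lower (-1.07), and was not called with total counts, upper-quartile scaling, a filter of 50 reads or limma. *Slbp*, which binds the stem-loop, had a TPM of 23.5 and 22.3 in fibroblasts against 37.5 and 40.6 in iPSCs (log2 fold change 0.63, not called for its fold). *Npat*, the activator of histone gene transcription, had a TPM of 29.1 and 33.6 against 44.0 and 47.0 (log2 fold change 0.41, not called for its fold). *Srrt* (0.88) and *Upf1* (0.17) were not called either. *Lsm11* (-0.79) and *Ncbp2* (-0.36) were lower, and were also not called for their fold.

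Histone chaperones, which carry histones to chromatin, were called higher for 11 of 30 genes and lower for 1, with a median log2 fold change of 0.56. These are 36.7% and 3.33% of the list, beside 27.1% and 22.3% over all genes. *Nasp*, a chaperone of H1 and of H3 with H4, had a TPM of 22.8 and 22.4 in fibroblasts against 241 and 265 in iPSCs, a log2 fold change of 3.35 (SE 0.10, edgeR adjusted p = 0.00016). *Tonsl* (2.54), *Npm1* (2.40), *Nap1l1* (1.53) and *Chaf1b* (1.46), the last a subunit of the CAF-1 complex of replicating chromatin, also rose. *Anp32e*, which removes the histone encoded by *H2afz*, rose by 1.37, and *Hira*, which deposits the replacement H3, by 1.07. *Ubn1*, its partner, was called lower at -1.07, but not with total counts, upper-quartile scaling, a filter of 50 reads or limma. *Rbbp7* (0.51) and *Ssrp1* (0.42) were not called. Among others not called, *Asf1b* (-0.67) and *Ipo4* (-0.58) were lower, and *Hjurp* (0.82) and *Supt16* (0.72) were higher. Genes of S phase were called higher for 17 of 26 and lower for 0 by edgeR, with a median log2 fold change of 1.28. DESeq2 and limma also called 0 lower. *Ccne2*, the 1 gene lower at an adjusted p under 0.05, was not called for its fold (-0.84, edgeR adjusted p = 0.010). The share called higher was 65.4%, beside 27.1% over all genes, and 1 gene of the list was called lower without iPSC line 10 and 1 with no fold threshold. *Ccne1* (4.10), *Cdc25a* (2.92), *Mcm2* (2.25), *Cdc6* (2.21) and *Gins1* (2.14) rose most, while *Ccna2* (0.42) and *Rfc4* (-0.09) were not called. The replication-dependent histone genes, expressed in the same phase, had their median of -0.35 beside these values, and the difference between these lists was not tested. That median describes captured RNA only. Whether its reads came from mRNAs with or without a poly(A) tail was not tested.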

How the data were processed

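Total RNA of 4 *M. minutoides* cell lines was made into libraries with the NEBNext Ultra II kit and sequenced on an Illumina instrument. For each library the authors deposited read counts (total and unique, over genes, exons, exon junctions and introns) on GRCm38, the build in the submitters' processing notes. Aligner, counter and any poly(A) selection were not given in the sources used here. Deposited TPM equals exon reads per exon length scaled to the same total. RPKM values and fractions (ratios of unique reads and of intron reads) deposited by the authors, and other annotation columns in the deposited files, were not used, except lengths and exon numbers. A gene absent or diverged in *M. minutoides* can lose reads in every library.

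Members and lists were chosen with earlier results of these data known. Total exon reads were tested in R 4.3.3 with edgeR 4.0.16 (filterByExpr, TMM, quasi-likelihood, prior count 2), with Benjamini-Hochberg adjustment over 17777 genes, of which 13096 had an unadjusted p under 0.05. The standard error is the log2 fold change over the root of F. The study states TPM and a different test, and the count test was taken because the files hold counts. An exact permutation test of 2 against 2 cannot go below p = 0.333 (two-sided), so sums and shares have no test. Named were, in each class, up to 8 genes with the highest TPM, the 2 largest increases and decreases called among those with a mean of at least 50 reads, replacement genes at 1 TPM or more on average, germline genes with 10 reads in a library, and from other lists up to 5 called and up to 2 other genes by TPM. *Slbp*, *Npat*, *Lsm11*, *Ncbp2*, *Anp32e*, *Hira*, *Asf1b*, *Ipo4*, *Hjurp*, *Supt16*, *Ccne2*, *Tut7* and *Ubn1* were named after their values were seen. So were other members given only by their log2 fold change. The floor is 3 counts over a group, and intervals and the floor cover counting error only. Alternatives were DESeq2 1.42.0, limma 3.58.1 on log2 TPM, other scalings, filters and reads, and each library left out in turn. Simulated data with known changes were used to test the edgeR script.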

Additional observations from a re-analysis of the deposited data

How the results depend on the processing

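Of 27 named members that were tested, 12 kept their direction and call under each alternative that gave a value. For 10 of them this includes unique reads, while *Hist1h2bn* and *Hist2h2aa1* had too few unique reads to be tested on them. The count of replication-dependent genes called lower was 14 and became 8 with a filter of a mean of at least 50 reads and 8 with unique exon reads, where fewer genes could be tested, and 8 to 16 with 1 library left out. The count called higher was 7 and became 4 with that filter, and 6 to 9 with 1 library left out. Replacement genes called lower were 2 and became 1 with upper-quartile scaling, total counts, the filter of 50 reads and limma on log2(TPM + 1), log2(TPM + 0.1) or log2(TPM + 1) without a filter, each by *H2afy*, and 1 to 2 with 1 library left out, while the count called higher was 3 under each alternative except no fold threshold, where it was 4. Over all genes, 5965 were called lower with no fold threshold in place of 3962, and 3349 to 4333 with 1 library left out. The sign of *H2afv*, at -0.00, became positive with DESeq2 and its size factors (0.023 each), upper quartile (0.18), total counts (0.28), TMM without mitochondrial and the 10 most abundant genes (0.0069), the filter of 50 reads (0.091), unique reads (0.0022) and limma (0.12), and ranged from -0.11 to 0.075 with 1 library left out. *Hist1h2bc* turned to -0.46 with total gene reads, which add its intron, and *Hist1h3b* to 0.31 with unique reads. *H2afy2* ranged from -0.10 to 0.60 and *H1fx* from -0.043 to 0.39 with 1 library left out. Where no construction is given, the cause was not tested. Upper quartile gave 5378 higher and 3364 lower genes and a median of 0.26. No paired analysis was possible because the lines of both groups share no replicate number. Genes with few or no unique reads, among them *Hist2h2aa1*, cannot be told from their copies at any depth.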
